A study of Mus musculus with 14 samples.

Results

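Interferon gamma signalling and the CXCR3 ligands were described in colonic macrophages of IL-10 receptor-deficient mice from 8 gene rows: IFNG, IFNGR1, IFNGR2, JAK2, IRF1, SOCS1, CXCL9 and CXCL10. These are 8 of the 24982 genes in the deposited counts, taken by name as the cytokine, its receptor chains, a transducer, a target transcription factor, an inhibitor and the chemokines. All 8 were among the 13136 genes with enough reads to be tested. Each library held RNA of macrophages sorted from the lamina propria of colon and cecum of 1 mouse as live CD45+ CD103- Ly6G- CD64+ CD11b+ Ly6C- MHCII+ cells.

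All mice were C57BL/6 and 5 weeks old, and every genotype carried Cdcs1, a locus that raises susceptibility to colitis. Wild-type mice are called WT, Il10ra -/- mice IL10RAKO, and Il10ra -/- Ccr2 -/- mice DKO. Il10ra encodes the ligand-binding chain of the receptor for the anti-inflammatory cytokine IL-10, and Ccr2 the chemokine receptor through which monocytes leave the bone marrow. The -/- alleles are not restricted to a cell type, so lymphocytes and stromal cells lacked the genes as well as macrophages. Comparisons used 4 mice per genotype (WT mice 4, 5, 10 and 13, IL10RAKO mice 1, 2, 7 and 8, DKO mice 3, 9, 12 and 14). WT mouse 11 and the single Ccr2 -/- mouse (CCR2KO, mouse 6) entered no main comparison and are given as values.

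Interferon gamma is a cytokine made mainly by T cells, NK cells and innate lymphoid cells. It binds a receptor of the chains IFNGR1 and IFNGR2, which activates the kinases JAK1 and JAK2 and, through them, transcription factors. These bind short DNA elements called GAS, and the target gene IRF1 then acts on related elements called ISRE. CXCL9 and CXCL10 attract T and NK cells that carry the receptor CXCR3, and SOCS1 blocks the kinases and so limits the pathway. In the gut, macrophages are among the cells that receive the cytokine and secrete these chemokines.

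The libraries held 12153000 to 21216468 reads. Values are CPM, the reads of a gene divided by the size of its library and put on a common scale, with TMM factors that correct for differences in RNA composition. Among the 12 libraries compared, 3 reads corresponded to 0.124 to 0.211 CPM, so levels below this range were at the limit of detection, which covers counting error only. The targeted gene IL10RA lay between 217.0 and 379.6 CPM in WT mice, between 4.89 and 11.2 in IL10RAKO mice and between 3.41 and 7.59 in DKO mice. CCR2 lay between 514 and 702 CPM in WT mice, between 361 and 627 in IL10RAKO mice and between 3.92 and 6.68 in DKO mice, so both targeted genes followed the labels. In sorted populations, a lower level per cell and fewer cells of a type cannot be told apart.

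The promoters of the 4 target genes are shown because their RNA carried most of the changes described here. They are the 250 bases before the RefSeq gene starts in build GRCm38.p6, written 5′ to 3′ on the coding strand. Capitals mark matches on either strand to GAS (TTCNNNGAA) or ISRE (GAAANNGAAA).
CXCL9: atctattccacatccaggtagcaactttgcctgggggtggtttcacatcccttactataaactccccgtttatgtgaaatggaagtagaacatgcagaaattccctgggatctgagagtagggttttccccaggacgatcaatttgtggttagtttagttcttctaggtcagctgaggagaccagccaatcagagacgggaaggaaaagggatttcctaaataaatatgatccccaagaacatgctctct
CXCL10: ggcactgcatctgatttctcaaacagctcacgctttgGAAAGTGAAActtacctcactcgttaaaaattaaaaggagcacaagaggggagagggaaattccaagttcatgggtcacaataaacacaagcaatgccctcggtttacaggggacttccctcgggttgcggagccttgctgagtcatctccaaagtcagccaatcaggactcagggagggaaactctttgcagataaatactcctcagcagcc
IRF1: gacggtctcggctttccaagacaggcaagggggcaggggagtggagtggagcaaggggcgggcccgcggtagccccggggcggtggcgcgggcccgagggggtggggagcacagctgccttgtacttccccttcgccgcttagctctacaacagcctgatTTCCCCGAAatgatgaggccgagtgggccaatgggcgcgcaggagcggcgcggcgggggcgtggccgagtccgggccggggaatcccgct
SOCS1: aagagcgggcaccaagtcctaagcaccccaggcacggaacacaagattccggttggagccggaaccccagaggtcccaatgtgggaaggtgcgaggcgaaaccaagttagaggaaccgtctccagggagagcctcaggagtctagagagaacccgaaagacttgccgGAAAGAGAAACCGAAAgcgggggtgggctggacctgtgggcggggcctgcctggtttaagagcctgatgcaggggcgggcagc

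The CXCL9 stretch is chr5:92328080-92328329 and that of CXCL10 chr5:92348890-92349139, both on the minus strand, upstream of genes that lie next to each other on the chromosome. The IRF1 stretch is chr11:53769764-53770013 on the plus strand, and that of SOCS1 is chr16:10785537-10785786 on the minus strand. CXCL10 held 1 ISRE match that began 213 bases before the start, SOCS1 held 2 overlapping ISRE matches at 83 and 77 bases, and IRF1 held 1 GAS match at 90 bases. IFNG held 1 GAS match at the far edge of its window, 249 bases before the start. No match to these letters lay in the windows of CXCL9, IFNGR1, IFNGR2 or JAK2. Of 32851 mouse promoters of this length, 7.02% held a GAS match and 2.98% an ISRE match. A match is a description of the sequence and not of binding.

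In IL10RAKO macrophages 6 of the 8 members rose over WT (IFNG, JAK2, IRF1, SOCS1, CXCL9 and CXCL10), and the same number rose in DKO macrophages. The receptor chains IFNGR1 and IFNGR2 did not pass the test in either comparison. Tests were edgeR's quasi-likelihood test with Benjamini-Hochberg adjustment over all 13136 genes, and a gene was called at an adjusted p under 0.05. In IL10RAKO against WT, 15.8% of all genes were called and 8.7% were called higher. In DKO against WT, 18.5% were called and 9.23% were called higher. The median log2 fold change of the members was 2.03 in IL10RAKO and 2.14 in DKO, beside -0.07 and -0.06 over all genes. In 6 members every IL10RAKO mouse lay above every WT mouse, which held for 9.45% of all genes. In 5 members every DKO mouse lay above every WT mouse, which held for 11.2% of all genes. The comparisons of IL10RAKO and DKO with WT share the 4 WT mice.

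**Figure D1:**
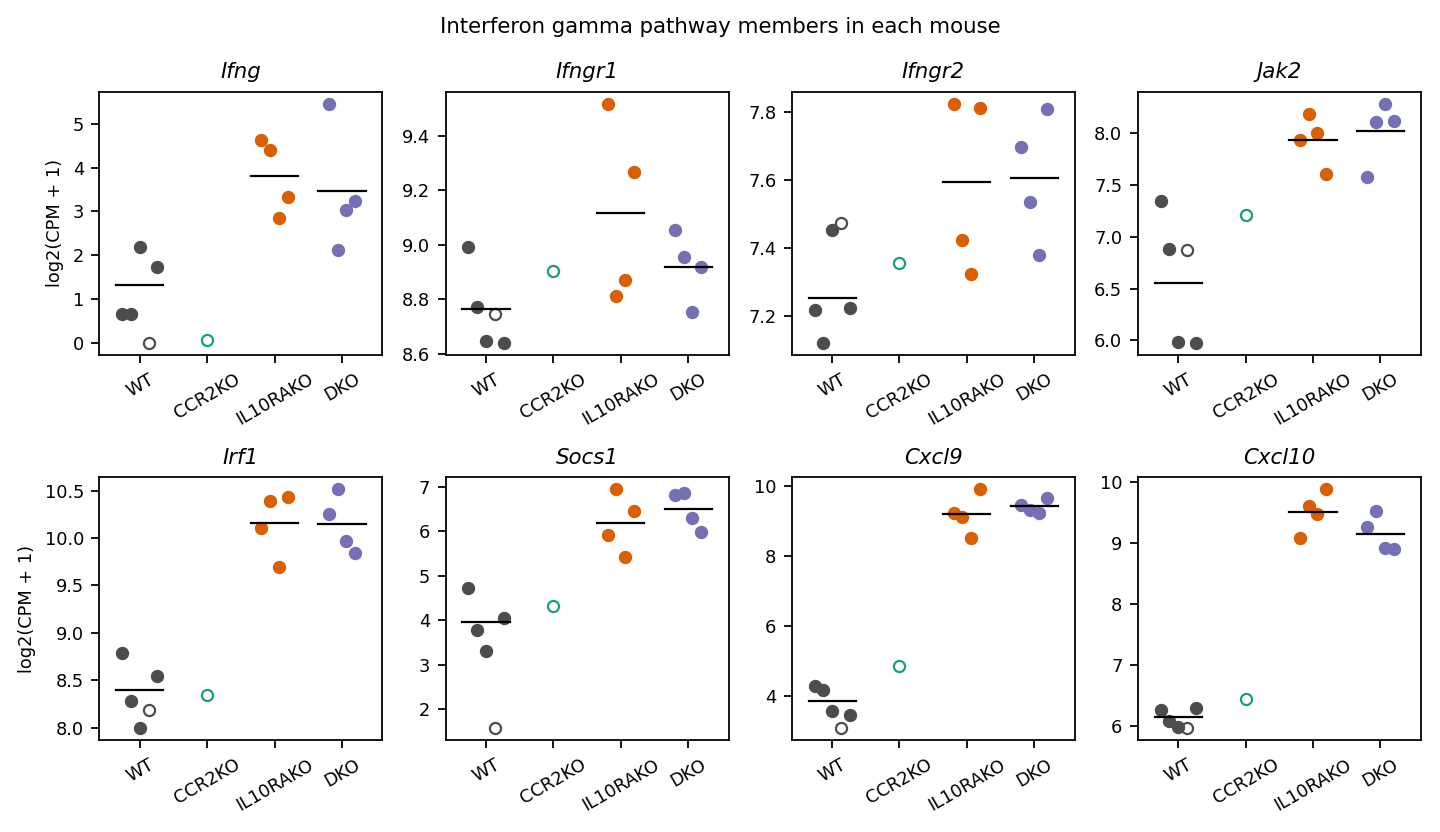
Level of each member in each mouse, as log2(CPM + 1), by genotype. Filled points are the 12 compared libraries, open points are WT mouse 11 and the CCR2KO mouse, and bars are means of the filled points. For JAK2, IRF1, SOCS1, CXCL9 and CXCL10 all IL10RAKO and DKO points lie above all WT points.

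IFNG, the cytokine itself (chr10:118441046-118445892), was the member with the lowest level and the widest spread. In WT mice 4, 5, 10 and 13 it had 0.57, 0.59, 3.56 and 2.33 CPM, from 12, 10, 86 and 35 reads. In IL10RAKO mice 1, 2, 7 and 8 it had 23.7, 20.3, 6.22 and 9.05 CPM, from 340, 326, 123 and 137 reads. In DKO mice 3, 9, 12 and 14 it had 43.1, 3.36, 7.17 and 8.40 CPM, from 781, 54, 102 and 170 reads. All IL10RAKO mice exceeded all WT mice, whereas DKO mouse 9 lay just below WT mouse 10. The highest mouse exceeded the lowest by 6.22-fold in WT, 3.80-fold in IL10RAKO and 12.8-fold in DKO.

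IFNG rose by 3.05 on the log2 scale in IL10RAKO (SE 0.807, edgeR adjusted p = 0.0190) and by 3.12 in DKO (SE 0.809, edgeR adjusted p = 0.0148). The 95% intervals reached from 1.32 to 4.78 and from 1.39 to 4.86. The call in IL10RAKO was lost without IL10RAKO mouse 1, where the log2 fold change was 2.74 (edgeR adjusted p = 0.0540), and without WT mouse 5, where it was 2.78 (edgeR adjusted p = 0.0524). The call in DKO was lost without DKO mouse 3, where the log2 fold change was 1.84 (edgeR adjusted p = 0.0755). The size of the IFNG difference in DKO therefore rested to a large part on 1 mouse.

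Because IFNG is a product of lymphocytes, its reads were set beside markers of T and NK cells, which the gate does not name. The 22 of 24 chosen markers that the table lists summed to between 91.6 and 166.2 CPM in WT mice, between 117.2 and 222.8 in IL10RAKO mice and between 105.2 and 288.7 in DKO mice, so all ranges overlapped. Of the 18 markers tested, 2 rose in IL10RAKO (TBX21, the transcription factor T-bet, and KLRD1, an NK cell receptor chain). In DKO 2 rose (TBX21 and NKG7, a granule protein) and 1 fell. Over all genes, 8.7% were called higher in IL10RAKO and 9.23% in DKO. None of the 18 was called in DKO against IL10RAKO. The median log2 fold change of the tested markers was 0.85 in IL10RAKO and 0.68 in DKO. DKO mouse 3, with the most IFNG, also had the highest marker sum of these 12 mice. IL10RAKO mice 1 and 2 followed in IFNG and had the next highest sums. The 5 defining markers described next gave 290 of the 5229 reads of the sum in DKO mouse 3 and 172 of 3183 in IL10RAKO mouse 1. The sum thus rested mostly on other markers of the list. DKO mouse 3 also had the highest B and plasma cell marker sum of these 12 mice, 1898 CPM.

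The defining markers CD3E, CD3D, CD3G, CD8A and NCR1 were present at low counts. CD3E reads numbered 28 to 87 across the WT mice, 2 to 31 across the IL10RAKO mice and 5 to 25 across the DKO mice, and its log2 fold changes of -1.17 and -1.70 did not pass the test. CD3D (1.53 and 1.32), CD3G (0.64 and 0.43) and CD8A (0.80 and 0.92) did not pass either, and NCR1 had too few reads to be tested. CD8A was at 0 in WT mouse 5 and NCR1 at 0 in WT mouse 13, and none of the 5 was at 0 in the IL10RAKO and DKO mice.

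Per read of these 5 markers in sum, WT mice 4, 5, 10 and 13 had 0.0482, 0.0763, 0.509 and 0.432 IFNG reads. IL10RAKO mice 1, 2, 7 and 8 had 1.98, 1.79, 0.526 and 1.88, and DKO mice 3, 9, 12 and 14 had 2.69, 0.529, 1.16 and 1.40. The lowest IL10RAKO and DKO ratios lay narrowly above the highest WT ratio. This ratio was chosen after the values were seen and was not tested, and it does not show which cells the IFNG reads came from. The part of these cells in the IFNG result was not tested.

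Within the 8 mice that lack Il10ra, log2 IFNG and the log2 marker sum had a Pearson r of 0.74 (exact permutation p = 0.0412, adjusted p = 0.124 over 3 relations) and a Spearman rho of 0.55 (exact permutation p = 0.171, adjusted p = 0.513). Without mice 1 and 3, the farthest from the median IFNG level, r was 0.37 over 6 mice, so the relation rested on those mice. For IFNG and CXCL9 the corresponding r was 0.12 (exact permutation p = 0.791, adjusted p = 0.791) and rho was 0.24 (exact permutation p = 0.582, adjusted p = 0.873). For IFNG and CXCL10 r was -0.11 (exact permutation p = 0.790, adjusted p = 0.791) and rho was -0.02 (exact permutation p = 0.977, adjusted p = 0.977). Without mice 1 and 3 these r values were 0.06 and 0.15. Each genotype alone held too few mice for a correlation.

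**Figure D2:**
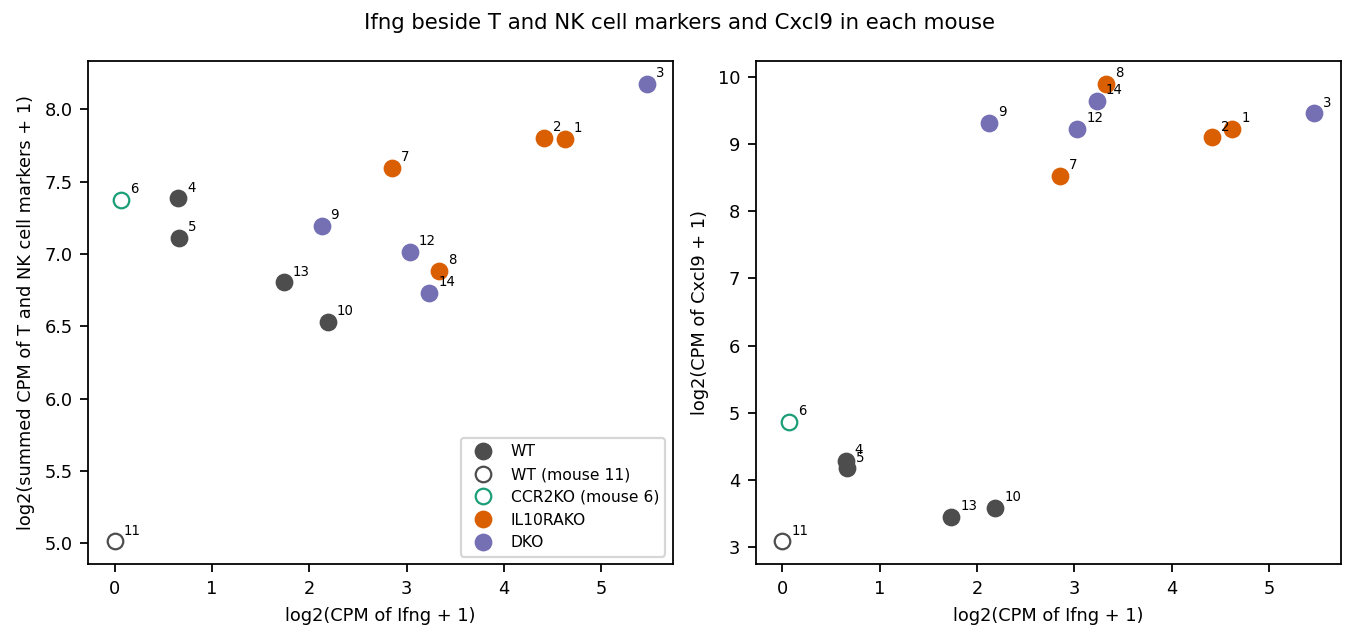
IFNG in each mouse (x axis, log2(CPM + 1)) against the summed T and NK cell markers (left) and CXCL9 (right), both as log2(CPM + 1), with mouse numbers beside the points. The 3 highest IFNG levels (mice 3, 1 and 2) stand with the 3 highest marker sums, while CXCL9 is high in all 8 IL10RAKO and DKO mice, whose IFNG ran from 3.36 to 43.1 CPM.

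The ligand-binding receptor chain, IFNGR1 (chr10:19591949-19610229), was abundant in every genotype. In WT mice 4, 5, 10 and 13 it had 508, 436, 400.1 and 398 CPM. In IL10RAKO mice 1, 2, 7 and 8 it had 733, 448, 467 and 615 CPM, and in DKO mice 3, 9, 12 and 14 it had 531, 495, 430.4 and 483 CPM. IL10RAKO mice 1 and 8 were the highest, and the ranges of all genotypes overlapped. The log2 fold change was 0.38 in IL10RAKO (SE 0.171, edgeR adjusted p = 0.159) and 0.15 in DKO (edgeR adjusted p = 0.579).

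The signalling chain, IFNGR2 (chr16:91547072-91565623), also overlapped between genotypes. It had 148, 138, 174 and 148 CPM in the WT mice, 226, 171, 159 and 224 in the IL10RAKO mice and 207, 184, 166 and 223 in the DKO mice. Its log2 fold change was 0.36 in IL10RAKO (SE 0.160, edgeR adjusted p = 0.157) and 0.36 in DKO (edgeR adjusted p = 0.143). The 95% intervals, 0.01 to 0.70 in both comparisons, left out more than a doubling on this scale. When library totals were used without TMM the log2 fold changes of both chains came close to 0, at the lowest 0.06 and 0.03 in IL10RAKO and -0.10 and 0.10 in DKO.

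As both chains are needed for a working receptor, their reads were also compared within each library, where scaling has no part. The log2 ratio of IFNGR2 to IFNGR1 reads was -1.51 ± 0.26 (SD, n = 4) in WT, -1.53 ± 0.13 in IL10RAKO and -1.32 ± 0.14 in DKO. IL10RAKO differed from WT by -0.01 (exact permutation p = 0.914), DKO from WT by 0.20 (exact permutation p = 0.229) and DKO from IL10RAKO by 0.21 (exact permutation p = 0.0571). No difference in this ratio passed the test. With 70 relabelings of 4 against 4 mice the smallest p is 0.0286, and adjusted over the 6 ratio tests the last p was 0.114.

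JAK2 (chr19:29251828-29313080), the kinase bound to IFNGR2, rose in both genotypes. It had 162, 117, 62.5 and 62.0 CPM in the WT mice, 244, 289.9, 255 and 194 in the IL10RAKO mice, and 190.2, 275, 311 and 277 in the DKO mice. The lowest DKO mouse lay above the highest WT mouse, and WT mice 10 and 13 were well below WT mouse 4. The log2 fold change was 1.28 in IL10RAKO (SE 0.284, edgeR adjusted p = 0.00644) and 1.38 in DKO (SE 0.284, edgeR adjusted p = 0.00368).

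Among 9 other transducers and inhibitors, 2 rose in IL10RAKO and 4 in DKO, and none fell. Over all genes, 8.7% were called higher in IL10RAKO and 9.23% in DKO. The phosphatase gene PTPN2 (0.97 and 0.80) and CISH, a member of the SOCS family (1.97 and 1.71), rose in both. STAT3 and SOCS3, which act downstream of the IL-10 and IL-6 receptors, rose in DKO (0.60 and 0.56) and did not pass in IL10RAKO (0.45 and 0.45). Compared directly, DKO differed from IL10RAKO by 0.15 and 0.11 for these genes, and neither passed the test. JAK1 (-0.06 and 0.10), PTPN6 (0.43 and 0.37), PTPN11 (0.29 and 0.20), PIAS1 (-0.23 and -0.35) and PIAS4 (0.04 and 0.04) did not pass. The median log2 fold change of the list was 0.43 in IL10RAKO and 0.37 in DKO.

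IRF1 (chr11:53770014-53778374), the transcription factor whose promoter held the GAS match shown above, rose by more than 3-fold. It had 441, 311, 254 and 372 CPM in the WT mice, 1101, 1344, 825 and 1376 in the IL10RAKO mice, and 1219, 1461, 1004 and 917 in the DKO mice. The lowest IL10RAKO mouse, mouse 7, was still above the highest WT mouse. The log2 fold change was 1.75 in IL10RAKO (SE 0.222, edgeR adjusted p = 9.93e-05) and 1.74 in DKO (SE 0.222, edgeR adjusted p = 8.90e-05).

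SOCS1 (chr16:10782240-10785536), the inhibitor of the JAK kinases, rose further than IRF1 from a lower level. It had 25.4, 12.8, 8.95 and 15.7 CPM in the WT mice, 59.0, 121.9, 42.1 and 87.0 in the IL10RAKO mice, and 110.6, 115, 78.1 and 62.5 in the DKO mice. The groups without Il10ra did not overlap with WT. The log2 fold change was 2.30 in IL10RAKO (SE 0.364, edgeR adjusted p = 6.01e-04) and 2.54 in DKO (SE 0.367, edgeR adjusted p = 2.50e-04).

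CXCL9 (chr5:92321347-92328079) changed the most of the 8 members. It had 18.5, 17.1, 11.0 and 9.92 CPM in the WT mice. It had 600.3, 548, 367 and 955 CPM in the IL10RAKO mice and 703, 639, 599 and 798 in the DKO mice. The lowest mouse without Il10ra, IL10RAKO mouse 7, was far above the highest WT mouse, and the DKO mice lay within the IL10RAKO range. CXCL9 rose by 5.45 on the log2 scale in IL10RAKO (SE 0.321, edgeR adjusted p = 3.04e-07), a 43.7-fold change. In DKO it rose by 5.60 (SE 0.323, edgeR adjusted p = 1.46e-07), a 48.4-fold change. Its p-value ranked 2 of 13136 genes in IL10RAKO and 5 in DKO.

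CXCL10 (chr5:92346638-92348889) started from a higher level and rose less. It had 75.5, 66.4, 61.9 and 77.6 CPM in the WT mice, 542, 783, 713 and 946 in the IL10RAKO mice, and 617, 740.4, 482 and 478 in the DKO mice. Variation among the WT mice was small, 70.3 ± 7.43 CPM (SD, n = 4). CXCL10 rose by 3.41 on the log2 scale in IL10RAKO (SE 0.210, edgeR adjusted p = 3.04e-07), a 10.6-fold change, and by 3.04 in DKO (SE 0.207, edgeR adjusted p = 5.22e-07), an 8.24-fold change.

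**Figure D3:**
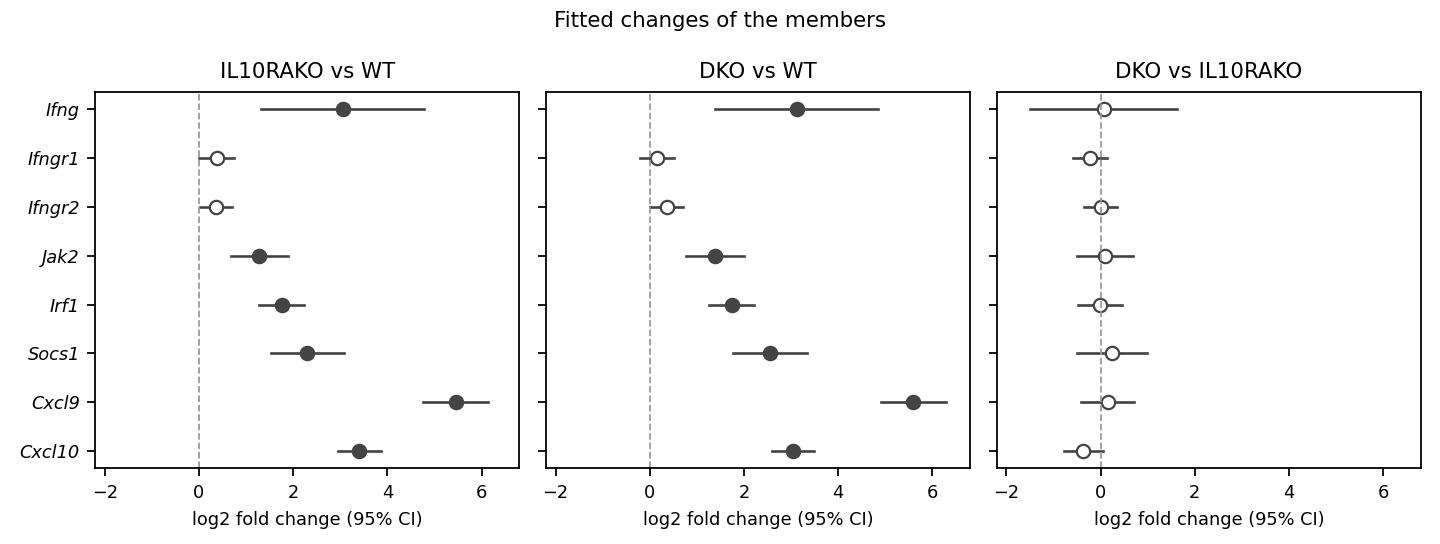
Log2 fold changes of the 8 members with 95% confidence intervals from the edgeR fit, in IL10RAKO against WT, DKO against WT and DKO against IL10RAKO. Filled points passed the test (6, 6 and 0 of 8), and the IFNG intervals are the widest in each panel.

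Both ligands bind CXCR3, so the balance between them was examined within each library. WT mice 4, 5, 10 and 13 had 4.07, 3.88, 5.63 and 7.80 CXCL10 reads per CXCL9 read. IL10RAKO mice 1, 2, 7 and 8 had 0.903, 1.43, 1.94 and 0.991, and DKO mice 3, 9, 12 and 14 had 0.877, 1.16, 0.805 and 0.599. Every WT ratio was above every ratio in mice without Il10ra, so that CXCL10 outnumbered CXCL9 severalfold in WT and the ligands were at similar counts in IL10RAKO and DKO.

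On the log2 scale this ratio was 2.36 ± 0.47 (SD, n = 4) in WT, 0.33 ± 0.51 in IL10RAKO and -0.26 ± 0.39 in DKO. IL10RAKO differed from WT by -2.03 and DKO from WT by -2.62 (exact permutation p = 0.0286 for each, the smallest the design can give, and adjusted p = 0.0857 over 6 tests). The differences are thus the most extreme of all relabelings and yet fail the correction. With so few mice these tests could not pass it on their own, because the adjusted p also depends on the other ratio tests. The ratio also restates the fitted changes of both ligands and is not separate evidence. DKO differed from IL10RAKO by -0.58 (exact permutation p = 0.143, adjusted p = 0.214).

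**Figure D4:**
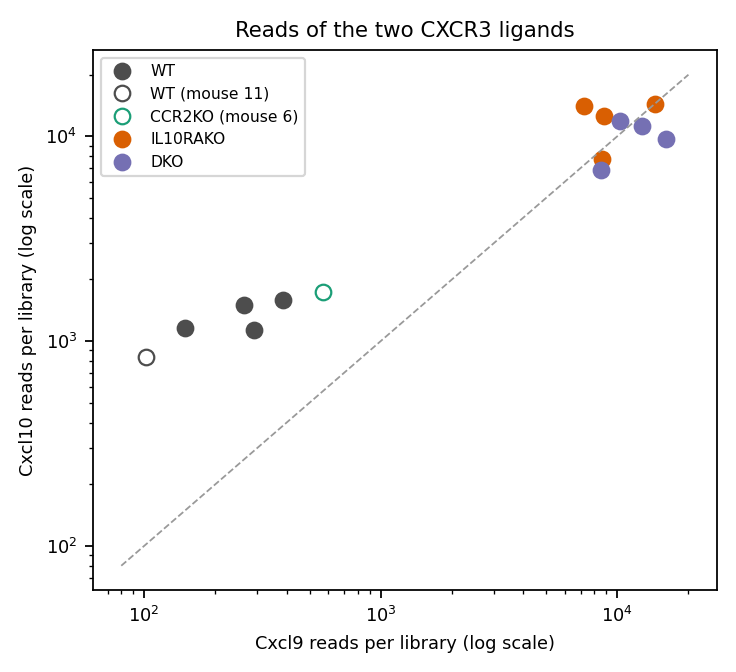
CXCL9 and CXCL10 reads in each of 14 libraries, both axes logarithmic, with a dashed line at equal counts. WT libraries lie above the line (3.88 to 7.80 CXCL10 reads per CXCL9 read in the 4 compared), and IL10RAKO and DKO libraries lie near it (0.599 to 1.94).

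The third ligand of the receptor, CXCL11, whose transcript in C57BL/6 mice is known to encode no functional chemokine, rose by 4.63 in IL10RAKO and by 3.89 in DKO on the log2 scale (edgeR adjusted p under 0.05 in both). It had 29, 36, 24 and 0 reads in the WT mice, 361, 645, 288 and 500 in the IL10RAKO mice, and 373, 305, 235 and 232 in the DKO mice. DPP4, the protease that trims these chemokines, rose by 0.82 and 0.78. It passed narrowly (edgeR adjusted p = 0.0457 and 0.0495), and its ranges overlapped with WT in both comparisons. CXCR3 itself lay between 11.1 and 19.8 CPM in WT mice, between 6.85 and 11.5 in IL10RAKO mice and between 4.57 and 10.4 in DKO mice, and its log2 fold changes of -0.78 and -0.92 did not pass the test. The ligands of this axis were thus called higher and the receptor was not called, and the difference between them was not tested.

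Levels of different genes were compared per kilobase of exon. In WT the order was IFNGR1 (152.9 ± 18.0 CPM per kb, SD, n = 4), IRF1 (86.6 ± 20.3), IFNGR2 (40.4 ± 4.10), CXCL10 (31.2 ± 3.30), JAK2 (20.1 ± 9.58), SOCS1 (5.41 ± 2.42), CXCL9 (4.68 ± 1.43) and IFNG (1.36 ± 1.12). SOCS1 and CXCL9 differed by less than their spread. In IL10RAKO CXCL10 (331 ± 74.4) and IRF1 (292 ± 64.3) were the highest and did not differ beyond their spread, followed by CXCL9 (204.8 ± 81.5) and IFNGR1 (198.8 ± 47.1), which did not differ either. IFNGR2 (51.7 ± 9.23), JAK2 (48.9 ± 7.86), SOCS1 (26.6 ± 12.0) and IFNG (11.4 ± 6.54) came after. In DKO the order was IRF1 (289 ± 61.2), CXCL10 (257 ± 55.6), CXCL9 (227 ± 28.8), IFNGR1 (170.3 ± 14.6), JAK2 (52.3 ± 10.2), IFNGR2 (51.7 ± 6.67), SOCS1 (31.5 ± 8.79) and IFNG (12.0 ± 14.3). There IRF1 and CXCL10, CXCL10 and CXCL9, and JAK2 and IFNGR2 stood apart by less than the larger SD of each pair.

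DKO was compared with IL10RAKO to see whether loss of Ccr2 altered the pathway when Il10ra was already absent. None of the 8 members passed edgeR's test or DESeq2, and none passed at an unadjusted p under 0.05, where 388 of all genes did; 0.0457% of all genes were called. The median log2 difference of the members was 0.04. The 95% intervals were -1.49 to 1.63 for IFNG, -0.50 to 0.70 for JAK2, -0.48 to 0.45 for IRF1 and -0.50 to 0.98 for SOCS1. They were -0.42 to 0.71 for CXCL9 and -0.77 to 0.04 for CXCL10, whose point estimate was -0.37. For the receptor chains they were -0.59 to 0.14 for IFNGR1 and -0.34 to 0.34 for IFNGR2. With all mice, a 2-fold difference is outside the interval for every member but IFNG, whose estimate ran from -1.23 without DKO mouse 3 to 0.41 without DKO mouse 9, against 0.07 with all mice. Its interval therefore holds for these 12 libraries only.

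Of 21 other genes known to respond to interferon gamma, 20 rose in IL10RAKO and 20 in DKO. Of all genes, 8.7% and 9.23% were called higher in these comparisons. Which signal raised the listed genes was not tested. The list had a median change of 2.56 and 2.58 on the log2 scale. GBP2, a guanylate-binding protein that acts on intracellular pathogens, rose by 4.44 and 4.63, from a mean of 17.5 CPM in WT to 378 and 433. SERPINA3G, a protease inhibitor, rose by 4.30 and 4.54, and CD274, which encodes the checkpoint ligand PD-L1, by 3.20 and 3.14. The exception was CIITA, the master regulator of MHC class II genes, at 0.12 and -0.12. CIITA lay between 263 and 346 CPM in WT mice. None of the 21 passed edgeR's test in DKO against IL10RAKO, and 0 had an unadjusted p under 0.05.

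Cytokines by which macrophages induce interferon gamma in lymphocytes moved in both directions. IL12A (3.59 and 3.97) and IL12B (3.45 and 3.38), the subunits of IL-12, rose in both genotypes, as did IL27 (2.93 and 2.54). IL12B stayed between 6.34 and 23.9 CPM in WT mice and lay between 124 and 231 in IL10RAKO mice and between 99.7 and 226 in DKO mice. IL18 and IL15 fell by 0.90 and 1.55 in DKO and did not pass in IL10RAKO (-0.19 and -0.82). Whether the changes of IL18 and IL15 differ between IL10RAKO and DKO was tested in that comparison, and neither passed. The median of this list was 2.93 in IL10RAKO and 2.54 in DKO.

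Of 7 tested genes by which T and NK cells respond to these cytokines, 4 rose in both genotypes. Over all genes, 8.7% were called higher in IL10RAKO and 9.23% in DKO. The 4 were the IL-12 receptor chains IL12RB1 (2.45 and 2.59) and IL12RB2 (2.88 and 3.58), TBX21 (3.50 and 3.36) and RUNX3 (0.93 and 1.14). STAT4 (0.88 and 0.75), IL18R1 (-2.19 and -1.79) and IL18RAP (0.44 and 0.32) did not pass. TBX21 reached at most 10.6 CPM in WT mice but lay between 18.7 and 60.8 in IL10RAKO mice and between 14.7 and 61.5 in DKO mice, and it was at 0 in WT mice 10 and 13. These genes are also expressed by myeloid cells to some degree, and the cell of origin was not tested.

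Of 8 genes of type I and III interferon signalling, mostly receptors and transducers, 0 were called by edgeR in either comparison with WT, beside 15.8% and 18.5% of all genes. At an unadjusted p under 0.05 these were 2 in IL10RAKO and 1 in DKO. IFNB1, which encodes interferon beta, had log2 fold changes of 1.98 and -1.03 and ranged from 8 reads in IL10RAKO mouse 1 to 938 in IL10RAKO mouse 7. IFNAR1 (0.31 and 0.12), IFNAR2 (0.24 and 0.01), IFNLR1 (-0.51 and 0.18), IL10RB (-0.07 and -0.15) and TYK2 (0.04 and 0.19) did not pass. STAT2 (0.61 and 0.58) and IRF9 (0.39 and 0.21), transcription factors that type I interferon activates, did not pass either, although every IL10RAKO mouse lay above every WT mouse for both. The difference between this list and the interferon gamma targets was not tested.

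**Figure D5:**
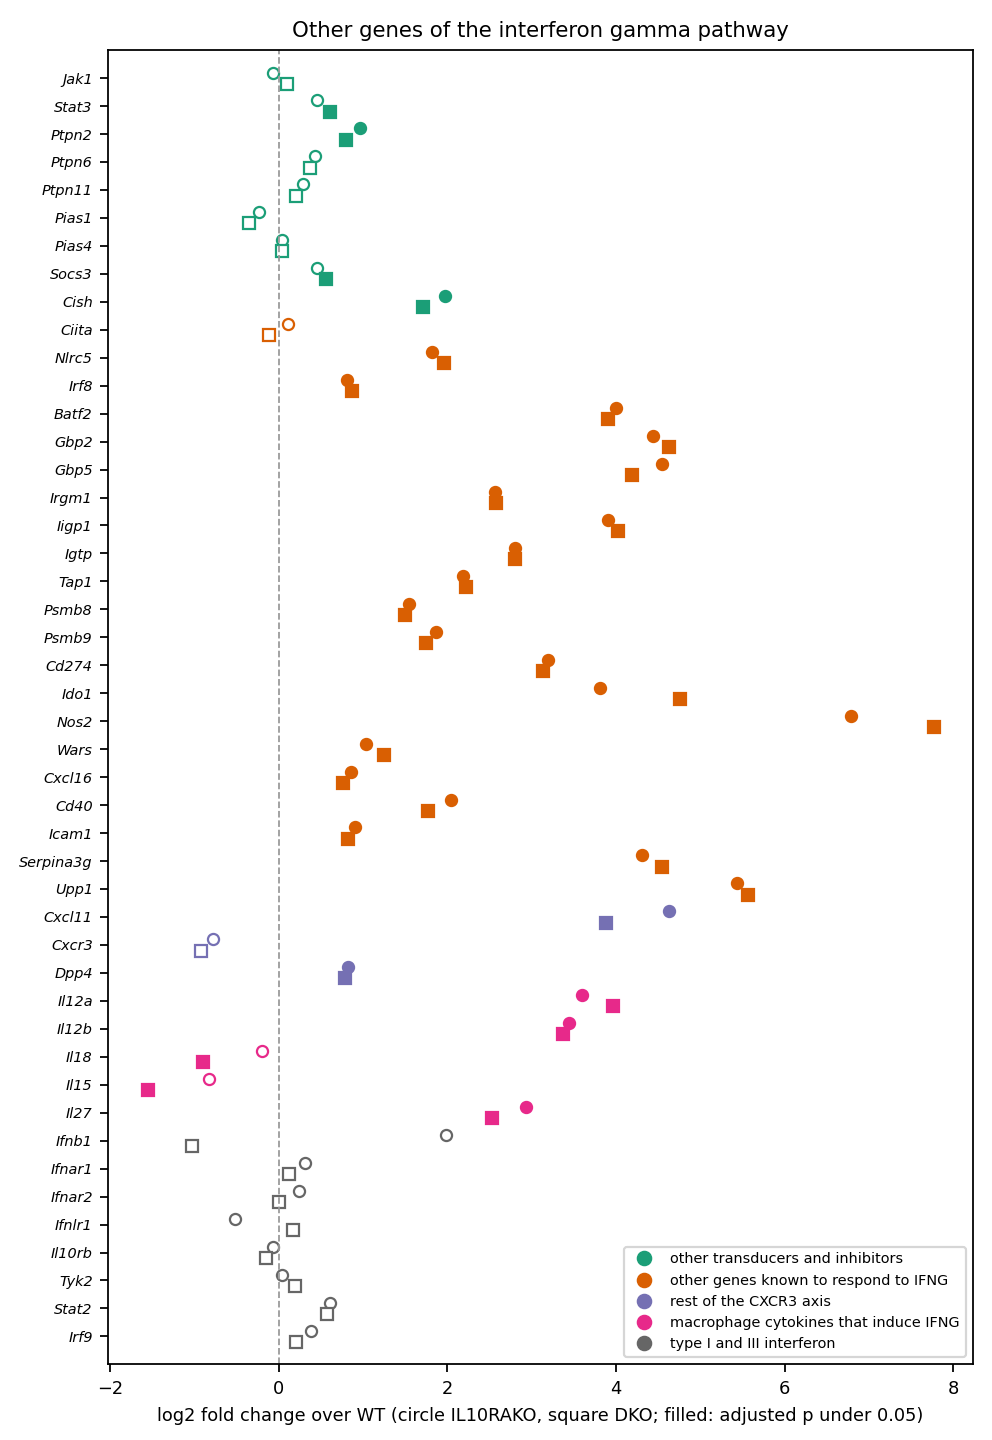
Log2 fold changes over WT of the other genes of the pathway, by list, with circles for IL10RAKO and squares for DKO and filled symbols for an adjusted p under 0.05. All listed interferon gamma targets except CIITA are filled in both. No gene of the type I and III list, mostly receptors and transducers, is filled. The lists hold different kinds of genes, and the difference between them was not tested.

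The macrophage identity of the libraries and the presence of other cells were examined with fixed marker lists. The 10 macrophage and gate genes summed to 20534 to 36987 CPM in these libraries. FCGR1 (CD64) and H2-AB1 rose in IL10RAKO, and MERTK rose and ADGRE1 (F4/80) and CX3CR1 fell in DKO. PTPRC, ITGAM, CSF1R, C1QA and CD68 passed in neither. None of the 10 was called in DKO against IL10RAKO. LY6C2, whose product the gate excluded, rose by 4.06 and 3.65, from 5.80 to 7.64 CPM in WT to 38.4 to 176.6 in IL10RAKO and 74.9 to 89.0 in DKO. LY6C1, the other Ly6C gene of the list, fell by 2.18 and 1.95, from a mean of 25.9 CPM in WT to 5.70 in IL10RAKO and 6.65 in DKO, with ranges that overlapped in both comparisons. ITGAE (CD103), also excluded by the gate, did not pass (1.69 and 1.56). Neutrophil markers summed to at most 0.73 CPM in WT mice, to between 1.62 and 86.3 in IL10RAKO mice and to between 20.1 and 41.2 in DKO mice, and the 3 tested (S100A8, S100A9 and CXCR2) were called higher.

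All 6 fibroblast markers (COL1A1, COL1A2, COL3A1, DCN, PDGFRA and LUM) fell in both, with sums between 294 and 577 CPM in WT mice, 15.0 and 53.7 in IL10RAKO mice, and 16.1 and 67.0 in DKO mice. The B and plasma cell markers CD79A, CD79B, MS4A1, PAX5, JCHAIN and MZB1 and the 6 epithelial markers (EPCAM, KRT8, KRT19, KRT20, CDH1 and VIL1) were not called, and the sums reached 1898 and 1262 CPM in single libraries. Of the endothelial markers PECAM1 fell in DKO, and CDH5, KDR and VWF passed in neither comparison. Among dendritic cell markers CLEC9A rose in both, XCR1 rose in IL10RAKO and CD209A fell in DKO, while ZBTB46 and FLT3 did not pass. No endothelial or dendritic cell marker was called in DKO against IL10RAKO. Of the mast cell markers KIT rose in both and CPA3 did not pass. Fibroblast markers moved with genotype in the opposite direction to the chemokines and neutrophil markers in the same direction, and their part in the results was not tested.

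WT mouse 11 and the CCR2KO mouse, which have Il10ra, had 0 and 1 IFNG reads. In these mice IRF1 had 291 and 324 CPM, JAK2 116 and 147 CPM, and SOCS1 1.98 and 19.1 CPM. CXCL9 had 7.47 and 28.1 CPM and CXCL10 61.3 and 86.2 CPM, all far below the lowest IL10RAKO or DKO value. IFNGR1 had 428 and 478 CPM and IFNGR2 177 and 163 CPM. With 1 CCR2KO library, loss of Ccr2 alone could not be tested.

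The genes whose levels followed those of IFNG, CXCL9 and CXCL10 most closely were sought across the 12 libraries after subtracting each genotype mean, among 12223 genes with a mean of at least 1 CPM. For CXCL10 they were NFKBIA (r = 0.97), which encodes the inhibitor of NF-κB, VIM (0.91), GADD45B (0.90), SPP1 (0.87) and ATP6V1E1 (0.87). IRF1 ranked 63 for CXCL10 (r = 0.71) and SOCS1 157 (r = 0.64), whereas CXCL9 ranked 2734 (r = 0.22). For CXCL9 they were GPI1 (0.93), COX10 (0.93), PRAF2 (0.93), GAPDH (0.92) and RAB32 (0.91), of which GPI1 and GAPDH encode glycolytic enzymes. For IFNG they were GUK1 (0.93), TASP1 (0.91), ARL3 (0.91), SKP1A (0.91) and PHLDA3 (0.90), and none of the other members came near (r at most 0.46, for IFNGR2). These are descriptions over 12 libraries that share depth and scaling, and so many genes give some high values.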

How the data were processed

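Macrophage libraries (SmartSeq v4 cDNA, paired-end reads) came from sorted colonic lamina propria cells, 1 mouse per library by the labels, with no litter or batch in the labels. The study used cohoused littermates as controls, without saying which libraries were littermates. P-values measure the spread between these mice. The authors demultiplexed with bcl2fastq 2.20, aligned to mm10 with STAR 2.5.1b and deposited raw read counts per gene, with symbols harmonized by biomaRt. They also deposited edgeR (3.34.0) pseudocounts, a score per gene after adjustment to a common library size, for 13338 genes in 12 libraries. Annotation, strand setting and treatment of multi-mapping reads are not given in the sources used here, so reads of overlapping or antisense genes cannot be told apart. No per-sample column was left out (0).

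Genotypes came from the labels. The main comparisons used the 12 libraries of the pseudocount table. Genes were kept with filterByExpr (minimum count 10), scaled with TMM and fitted for the 3 genotypes together in R 4.3.3 with edgeR 4.0.16 (glmQLFit, glmQLFTest), with Benjamini-Hochberg adjustment over 13136 genes. Same-genotype libraries all differed beyond sampling noise (chi-square per degree of freedom at least 30.0). The fit was tested on simulated counts with known changes. Alternatives were DESeq2 1.42.0, RLE or no scaling, other filters, only the 2 genotypes compared, WT mouse 11 added, the bias-adjusted deviance of edgeR, limma 3.58.1 on pseudocounts and leaving out each mouse. Ratios used read counts plus 0.5, and ratios and correlations were tested by two-sided exact permutation in scipy 1.17.1. Correlations used log2(CPM + 1).

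The members, gene lists and tests were chosen with earlier results of these data known. All 8 members are named. Of other lists, defining markers and all tested genes of lists of at most 10 are named, of longer lists the 3 with the smallest p in each direction among those called in IL10RAKO against WT, and for likeness the 5 genes with the highest r. CIITA and NKG7, and the reads of IFNB1, were named after their values were seen. Positions are those of GENCODE vM21 (GRCm38), in which all 8 members were matched, and promoters are from RefSeq (GRCm38.p6), where all 8 had an entry. IRF1 has a second RefSeq start with no match to either motif. The results of some genes of the lists are not reported here.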

Additional observations from a re-analysis of the deposited data

Results flagged for a closer look

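The 8 members and 2 ratios were examined in the 3 genotypes and once more in WT with mouse 11 added. Of these 40 groups none held a library flagged as far from the others, where chance alone flags about 5% of groups. IFNG in DKO mouse 3 was not flagged (43.1 CPM, against 3.36, 7.17 and 8.40 in the other DKO mice). The IFNG call in DKO was nevertheless lost without this mouse. The libraries outside the comparisons gave 3 values above all 4 compared WT mice. CXCL9 in the CCR2KO mouse was 28.1 CPM, from 570 reads, against 9.92 to 18.5 CPM in WT. CXCL10 in the same mouse was 86.2 CPM, from 1745 reads, against 61.9 to 77.6 CPM in WT. IFNGR2 in WT mouse 11 was 176.9 CPM, from 2414 reads, against 138.3 to 174.2 CPM in the others. Other values of these libraries lay below the WT range. In WT mouse 11 SOCS1 was 1.98 CPM, against 8.95 to 25.4 CPM, CXCL9 was 7.47 CPM, CXCL10 was 61.3 CPM and IFNG had 0 reads, and in the CCR2KO mouse IFNG had 1 read. Each rests on 1 library without a replicate and was not tested.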

How the results depend on the processing

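Depth limits IFNG most, with 10 to 86 reads in the WT mice. No paired analysis was possible because the genotypes hold different mice and no label says which of them were littermates. The count of members called was 6 against WT in each comparison under every setting that kept all mice, and 5 or 6 when 1 mouse was left out. IFNG was the member lost, in the cases named above. None of the members was called in DKO against IL10RAKO under any setting. No result reversed, and 501 of the values for single members kept their side of the threshold while 3 did not. With library totals and no TMM the median of all genes was -0.38 in IL10RAKO and -0.32 in DKO, and the called genes that were higher fell to 23.8% and 25.9%, from 55.1% and 50.0%. Genes called in DKO against IL10RAKO numbered 6, but 24 with DESeq2 and 4 to 10 when 1 mouse was left out. The difference in the log2 ratio of IFNGR2 to IFNGR1 between DKO and IL10RAKO ran from 0.14 to 0.25 when 1 mouse was left out, and without IL10RAKO mouse 2 it reached the smallest p of its design (exact permutation p = 0.0286). The r of IFNG with T and NK cell markers ran from 0.57 to 0.83 when 1 mouse was left out. Its unadjusted exact permutation p rose above 0.05 in 6 of the 8 cases, so the relation was weaker there. The cause of these changes was not tested.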
